A study of Homo sapiens with 12 samples.

Results

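The 6 genes described here are VIM, PDPN, EMP3, TGFBI, INHBA and P4HA2, a set named for vimentin, podoplanin and the partial epithelial-mesenchymal transition of head and neck squamous carcinoma. They are 6 of the 11963 genes that the arrays measured with a probe set naming a single gene. Every probe set whose only gene symbol in the platform annotation was 1 of these 6 symbols was taken, which gave 9 probe sets: 3 for PDPN, 2 for INHBA and 1 for each of the other genes. The 6 genes had been chosen with earlier results of the same arrays in view, so their values are given as a description and carry no test.

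Messenger RNA was measured on 12 Affymetrix arrays, each hybridised with biotin-labelled total RNA from 1 sample of a head and neck cancer cell line. The labels name 3 lines, and each had an invasion subline, made of cells collected after passage through Matrigel, a basement membrane extract, and the parent cells it came from. The 6 groups of 2 arrays were the Detroit invasion subline and the Detroit parent, the Fadu invasion subline and the Fadu parent, and the OECM1 invasion subline and the OECM1 parent. Fadu derives from a squamous cell carcinoma of the hypopharynx and OECM1 from one of the mouth, while the labels do not say which Detroit line was used. The labels give the groups no other treatment or alteration, and do not say whether a subline was 1 clone or a pool or whether duplicates came from separate cultures, so p-values measure only the spread between these arrays. RNA came from whole cultures, in which fewer cells that express a gene and less RNA per cell cannot be told apart.

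Vimentin is the intermediate filament protein of mesenchymal cells, and its appearance in an epithelial tumour cell is the classic sign of an epithelial-mesenchymal transition. In head and neck squamous carcinoma, cells at the edge of tumour nests are known to show a partial form of that programme, in which matrix, protease and podoplanin genes are switched on while epithelial genes stay on and most transcription factors of the full transition stay off. Podoplanin is a mucin-like membrane glycoprotein that links to the actin cortex, TGFBI is a secreted matrix protein induced by TGF-beta, and INHBA encodes the subunit from which activin A, a ligand of the TGF-beta family, is built. P4HA2 is a catalytic subunit of prolyl 4-hydroxylase, which stabilises the collagen triple helix, and EMP3 is a small membrane protein of the PMP22 family.

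Arrays labelled Detroit invasion subline did not resemble the Detroit parent. Across 8992 genes their mean profile correlated with that of the Fadu parent at r = 0.961 and with that of the Detroit parent at r = 0.881, with root mean square differences of 0.45 and 0.77 on the log2 scale. Genes are not independent replicates, so these correlations carry no p-value. The duplicates of that group were themselves 0.89 apart by the same measure, further than its mean lay from either parent, but each array alone was nearer to the Fadu parent (r = 0.953 and 0.897) than to the Detroit parent (r = 0.885 and 0.810). These arrays are called Detroit-labelled below, and for the 6 genes and the called genes the Fadu parent is given as well. Of 11 epithelial and squamous genes on the arrays, 10 lay above the limit for dim genes, 4.52 on the log2 scale, on all 12 arrays. The exception was KRT14, a basal keratin gene, which read 11.52 and 9.52 in the Detroit-labelled subline, against 4.11 and 3.997 in the Detroit parent and 9.08 and 8.66 in the Fadu parent. It was called higher over the Detroit parent by limma (6.47 ± 0.62, adjusted p = 0.000203). KRT14 was also called lower in the Detroit parent (-4.81) and the OECM1 parent (-4.45, arrays at 3.90 and 4.94) than in the Fadu parent. Among markers of other cell types, 4 of 10 fibroblast genes (COL3A1, LUM, FAP and POSTN), 7 of 8 endothelial genes and 2 of 5 leukocyte genes (PTPRC and LYZ) lay below the limit on every array. The others passed it on 3 to 12 arrays, PDGFRA on all 12 and TEK on 11, with values of at most 5.77 apart from COL1A2. COL1A2, a fibroblast gene, stood at 8.50 and 5.35 in the Detroit parent. The summed log2 values ranged from 38.6 to 45.2 for the fibroblast list, 29.8 to 32.1 for the endothelial list and 19.7 to 21.0 for the leukocyte list, and their part in the values below was not tested.

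Upstream sequences of the 3 genes that were high in OECM1 and near the limit for dim genes, or far below the OECM1 level, in Fadu are shown because these genes separated the lines most. Each window runs from 250 bases before to 50 bases after the transcription start (RefSeq, build GRCh38.p14, strand of the gene), with matches to the searched motifs in capitals. VIM lies at chr10:17227991-17228290 on the plus strand, TGFBI at chr5:136028738-136029037 on the plus strand, and INHBA at chr7:41703041-41703340 on the minus strand.
VIM: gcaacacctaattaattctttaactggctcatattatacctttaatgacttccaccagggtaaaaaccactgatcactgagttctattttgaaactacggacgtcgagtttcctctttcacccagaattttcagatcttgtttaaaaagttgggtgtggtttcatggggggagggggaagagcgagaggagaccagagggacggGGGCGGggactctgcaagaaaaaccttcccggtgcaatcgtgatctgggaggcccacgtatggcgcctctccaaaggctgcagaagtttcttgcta
TGFBI: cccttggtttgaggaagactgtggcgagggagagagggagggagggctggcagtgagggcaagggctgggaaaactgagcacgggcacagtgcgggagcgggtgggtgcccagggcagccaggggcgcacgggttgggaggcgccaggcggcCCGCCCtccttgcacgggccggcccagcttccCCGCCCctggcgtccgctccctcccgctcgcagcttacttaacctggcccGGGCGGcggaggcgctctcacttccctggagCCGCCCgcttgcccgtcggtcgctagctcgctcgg
INHBA: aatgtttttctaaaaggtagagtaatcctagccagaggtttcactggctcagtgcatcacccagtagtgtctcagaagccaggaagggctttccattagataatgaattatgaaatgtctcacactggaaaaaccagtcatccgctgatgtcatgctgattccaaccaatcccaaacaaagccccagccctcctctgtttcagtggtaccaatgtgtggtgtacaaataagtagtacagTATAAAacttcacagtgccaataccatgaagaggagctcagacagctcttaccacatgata

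Capitals in these windows mark the GC box GGGCGG on either strand, as in VIM and TGFBI, or the TATA motif TATAAA on either strand, as in INHBA. VIM held 1 GC box and TGFBI held 4, and a GC box was present in 45.0% of 35116 windows of the same length. INHBA held 1 TATA motif, which was present in 11.5% of all windows. Neither the AP-1 motif TGANTCA, found in 7.71% of windows, nor the E-box CACCTG, found in 20.6%, occurred in these windows on either strand. The windows also differed in base composition, with 48.0% G and C in VIM, 72.67% in TGFBI and 43.33% in INHBA, against a median of 58.67%. A match is only a run of letters, and nothing on binding follows from it or from its absence.

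VIM was an OECM1 gene on these arrays and its largest difference between subline and parent was in OECM1. Its probe set, 201426_s_at, read 10.12 and 10.08 in the OECM1 invasion subline, against 8.13 and 6.45 in the OECM1 parent, in log2 units. Both subline arrays lay above both parent arrays, and the difference of 2.81 ± 0.49 (SE of the fit, n = 2 each), 7.01-fold, ranked 1 of the 8992 genes from the highest. The parent duplicates themselves were 1.69 apart while the subline duplicates were 0.04 apart. In the Fadu invasion subline VIM read 5.56 and 4.87, against 5.0035 and 5.04 in the Fadu parent, and the groups overlapped. The Detroit-labelled subline read 5.32 and 4.51, against 4.75 and 4.97 in the Detroit parent, and it overlapped that parent and the Fadu parent. Between lines, the OECM1 parent stood 2.27 ± 0.49 above the Fadu parent and the Detroit parent differed from the OECM1 parent by -2.43 ± 0.49. From highest to lowest the group means ran from the OECM1 subline (10.1) through the OECM1 parent (7.29) to 4 groups between 5.22 and 4.86 whose neighbours overlapped.

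**Figure D1:**
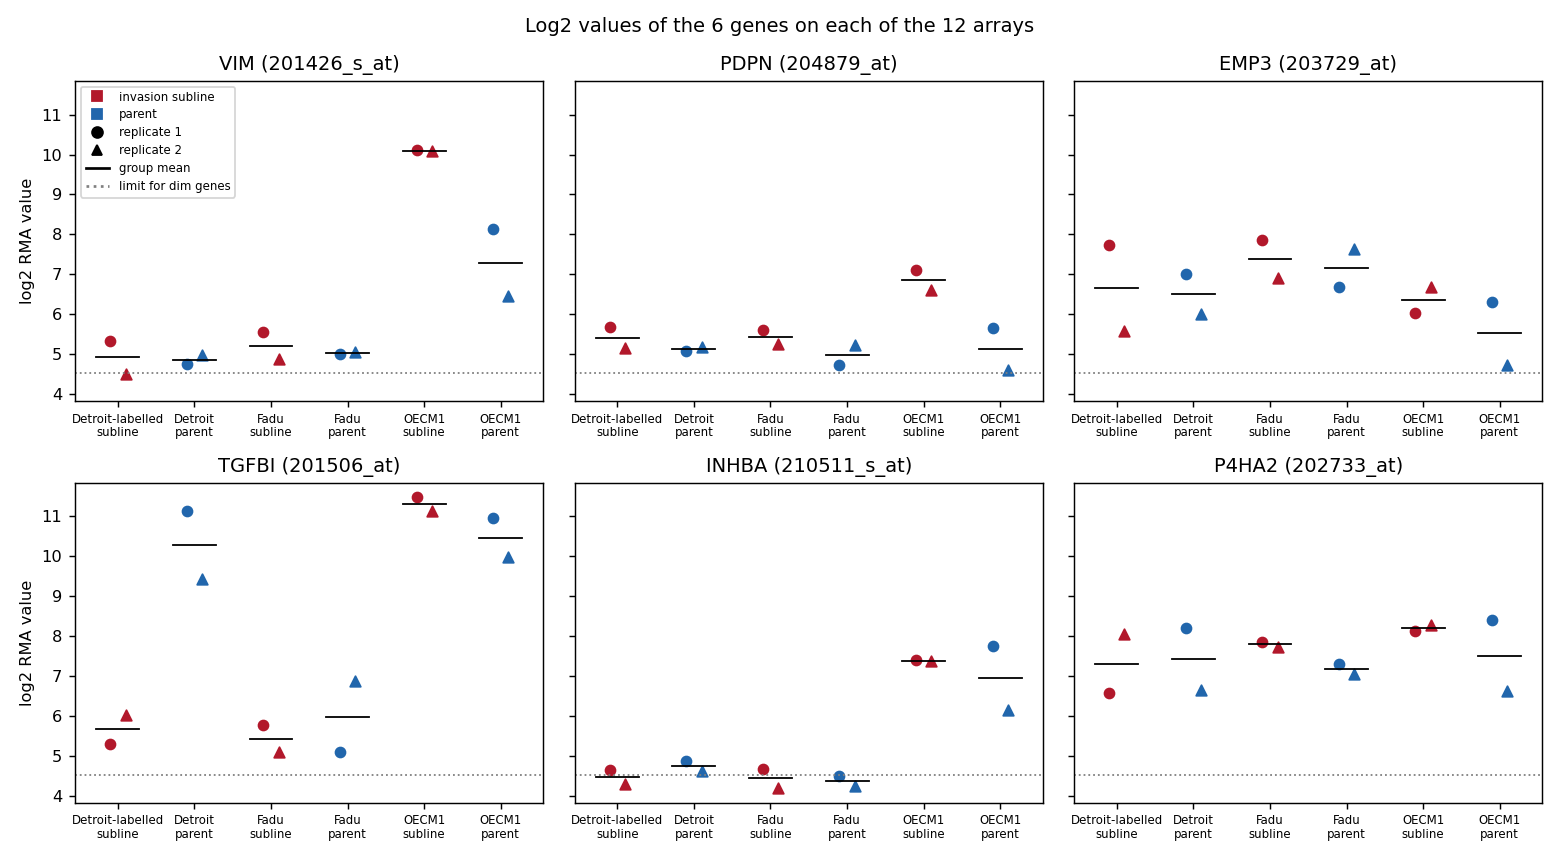
Log2 RMA value (y axis) of the representative probe set of each gene in the 6 groups (x axis), with circles for replicate 1, triangles for replicate 2, bars for group means and a dotted line at the limit for dim genes of 4.52. VIM and INHBA stood above 6 only in the 4 OECM1 arrays, and TGFBI stood above 9 in the OECM1 and Detroit parent arrays.

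PDPN was highest in the OECM1 invasion subline. Probe set 204879_at read 7.11 and 6.61 there, against 5.66 and 4.59 in the OECM1 parent, a difference of 1.74 ± 0.37 that ranked 27 of 8992. The Fadu and Detroit groups lay between 4.72 and 5.68 on this probe set. The Fadu invasion subline read 5.62 and 5.25, against 4.72 and 5.22 in the Fadu parent, so the duplicates narrowly did not overlap, and the difference was 0.46 ± 0.37. The Detroit-labelled subline read 5.68 and 5.15, against 5.09 and 5.18 in the Detroit parent, and overlapped both that parent and the Fadu parent. A second probe set, 221898_at, read 4.83 and 5.38 in the OECM1 subline, against 4.72 and 4.31 in the OECM1 parent, a difference of 0.59 ± 0.25 in the same direction and again without overlap. On that probe set the Detroit-labelled subline read 4.78 and 4.93, against 4.46 and 4.31 in the Detroit parent and a mean of 4.50 in the Fadu parent, and lay above both parents without overlap (by 0.46 and 0.35), so these PDPN probe sets differed on whether these groups overlap. The third PDPN probe set, 208233_at, lay between 3.04 and 3.45, below the limit on every array.

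TGFBI varied most of the 6 genes over the 12 arrays, with an SD of 2.70 on the log2 scale, against 2.05 for VIM and 0.70 to 1.38 for the other genes. It read 11.48 and 11.12 in the OECM1 invasion subline, against 10.95 and 9.97 in the OECM1 parent, a difference of 0.84 ± 0.67 without overlap that ranked 238 of 8992. The Fadu invasion subline read 5.77 and 5.09, against 5.09 and 6.86 in the Fadu parent, and these overlapped. The Detroit-labelled subline read 5.29 and 6.03, against 11.14 and 9.42 in the Detroit parent, a difference of -4.62 ± 0.67 that ranked 10 of 8992 from the lowest. Set beside the Fadu parent, the same Detroit-labelled arrays differed by -0.31 ± 0.67 and overlapped. Among parents, OECM1 exceeded Fadu by 4.49 ± 0.67 and Detroit exceeded Fadu by 4.31 ± 0.67, ranks 4 and 7 from the highest, while the Detroit parent differed from the OECM1 parent by -0.18 ± 0.67 and overlapped it. Groups thus fell at 2 levels, the OECM1 groups and the Detroit parent between 9.42 and 11.48 and the other 3 groups between 5.09 and 6.86.

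INHBA had the line pattern of VIM without its difference between OECM1 subline and parent. Probe set 210511_s_at read 7.39 and 7.37 in the OECM1 invasion subline, against 7.76 and 6.15 in the OECM1 parent, so the parent duplicates lay on either side of the subline and the difference was 0.43 ± 0.43. It read 4.67 and 4.19 in the Fadu invasion subline, against 4.49 and 4.24 in the Fadu parent, which overlapped. The Detroit-labelled subline read 4.64 and 4.30, against 4.88 and 4.61 in the Detroit parent, and overlapped both parents. Those 8 arrays lay at or near the limit for dim genes, and RMA compresses differences there. The OECM1 parent exceeded the Fadu parent by 2.59 ± 0.43 and the Detroit parent differed from the OECM1 parent by -2.21 ± 0.43, both without overlap. The other INHBA probe set, 204926_at, lay between 3.22 and 3.44 on all arrays below the limit on every array, so it cannot show a line difference.

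P4HA2 and EMP3 varied between duplicates about as much as between groups. P4HA2 read 8.12 and 8.28 in the OECM1 invasion subline, against 8.40 and 6.62 in the OECM1 parent, and these overlapped, with a difference of 0.69 ± 0.66. In the Fadu invasion subline it read 7.85 and 7.74, against 7.30 and 7.04 in the Fadu parent, a difference of 0.62 ± 0.66 without overlap. The Detroit-labelled subline read 6.57 and 8.05, against 8.21 and 6.65 in the Detroit parent, and these spanned the same range, which also held the Fadu parent. EMP3 read 6.03 and 6.69 in the OECM1 invasion subline, against 6.30 and 4.74 in the OECM1 parent, which overlapped and differed by 0.85 ± 0.73. It read 7.86 and 6.90 in the Fadu invasion subline, against 6.68 and 7.64 in the Fadu parent. The Detroit-labelled subline read 7.73 and 5.57, against 7.01 and 6.01 in the Detroit parent, so its duplicates lay outside those of that parent, and of the Fadu parent, on both sides. EMP3 was the only one of the 6 genes whose OECM1 parent lay below the Fadu parent on both arrays, by -1.64 ± 0.73, so it did not share the line pattern of VIM and INHBA.

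**Figure D2:**
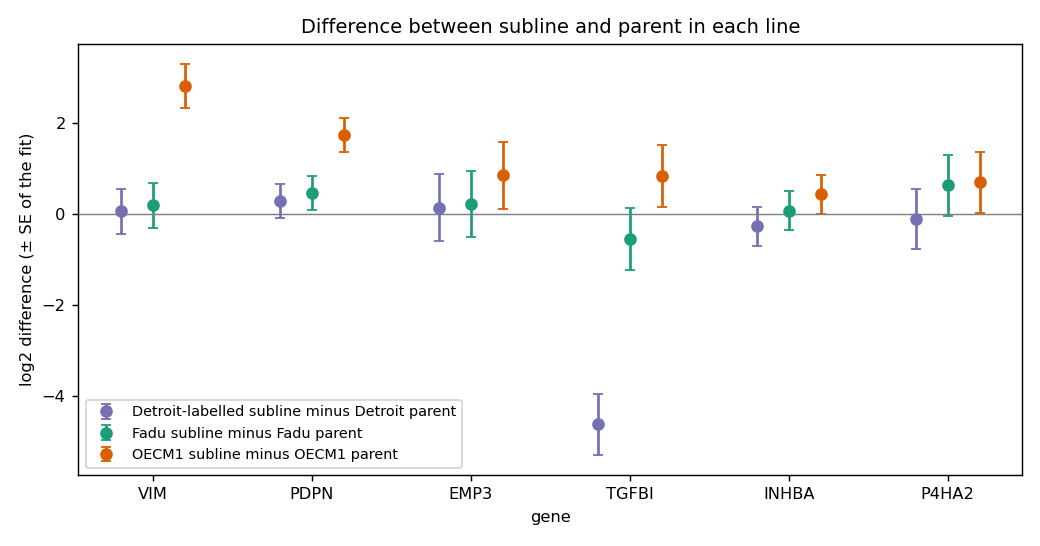
Log2 difference between invasion subline and parent (y axis) of the 6 genes (x axis) in each line, with bars for the standard error of the fit over 2 arrays a group. The OECM1 differences of VIM (2.81) and PDPN (1.74) were the highest points and the Detroit-labelled difference of TGFBI (-4.62) the lowest.

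Counted over the 6 genes, 3 (VIM, PDPN and TGFBI) were higher without overlap in the OECM1 invasion subline than in its parent and none was lower, where 13.5% of all tested genes were higher and 11.6% lower without overlap. In Fadu 2 of 6 (PDPN and P4HA2) were higher and none was lower, where 15.7% and 18% of all genes were. For the Detroit-labelled subline over the Detroit parent, none was higher and 1 of 6 (TGFBI) was lower, where 19.9% and 18.8% were. The OECM1 parent was higher than the Fadu parent without overlap for 3 of 6 and lower for 1, beside 20.4% and 21.1% of all genes. The Detroit parent was higher than the Fadu parent for 2 of 6 (TGFBI and INHBA) and lower for 1 (VIM, by -0.16), beside 26.6% and 24.8%. It was higher than the OECM1 parent for none and lower for 2 of 6 (VIM and INHBA), beside 21.1% and 22.1%. These comparisons share parent arrays, and because the 6 genes were chosen on them nothing is read from the counts.

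The OECM1 parent duplicates lay far apart for these genes. All 6 genes were higher in replicate 1 than in replicate 2 of the OECM1 parent, by 0.98 (TGFBI) to 1.78 (P4HA2), although 48.2% of all tested genes were higher in replicate 1. Differences as large as these upward were found in 2.91% of genes for P4HA2, 3.44% for VIM and 11.6% for TGFBI. The whole arrays differed too, with a root mean square difference of 0.75 between the OECM1 parent duplicates, against 0.89 in the Detroit-labelled subline and as little as 0.42 in the Fadu subline. The log2 ratio of the 3′ to the 5′ control probe set of ACTB, which is sensitive to RNA length and labelling, was 0.87 on replicate 1 and 0.04 on replicate 2, and its part in the result was not tested. All 6 genes were also higher in replicate 1 of the Fadu invasion subline, where the ACTB ratio was -0.05 on replicate 1 and 0.40 on replicate 2. On replicates 1 and 2 the ratio was -0.28 and 0.80 in the Detroit-labelled subline and 0.06 and 0.63 in the OECM1 subline. It was 0.55 and -0.23 in the Fadu parent and -0.03 and -0.10 in the Detroit parent, and its part in these groups was not tested either.

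Against OECM1 parent replicate 1 alone, the mean of the OECM1 invasion subline was still higher by 1.97 for VIM and 1.20 for PDPN, and by 0.35 for TGFBI and 0.07 for EMP3. For INHBA the difference was -0.38 and for P4HA2 -0.20, so these 2 differences changed sign. Against replicate 2 alone all 6 differences were positive, at 3.65 for VIM, 2.27 for PDPN, 1.63 for EMP3, 1.58 for P4HA2, 1.33 for TGFBI and 1.24 for INHBA. The order of VIM above PDPN above the other 4 genes was thus the same against either parent array.

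**Figure D3:**
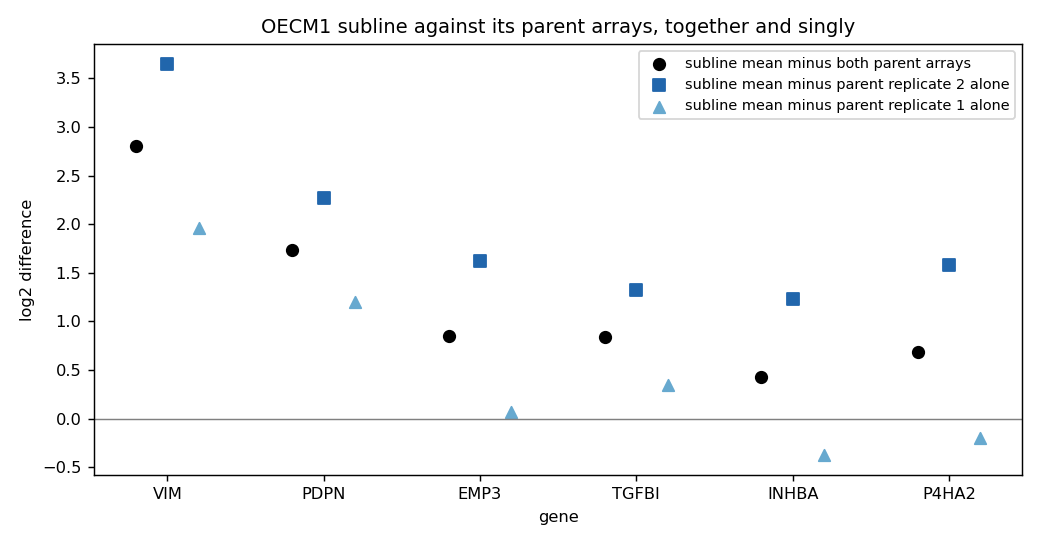
Log2 difference (y axis) of the mean of the OECM1 invasion subline from both OECM1 parent arrays (circles), from parent replicate 2 alone (squares) and from parent replicate 1 alone (triangles), for the 6 genes (x axis). Squares lay above triangles for all 6 genes, and the triangles of INHBA (-0.38) and P4HA2 (-0.20) lay below 0.

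Other genes of the partial transition were taken from a list of 56 further genes, of which 48 were on the arrays as single-gene probe sets and all 48 passed the limit for dim genes. The list had also been drawn up with earlier results of these arrays known. In the OECM1 invasion subline over its parent no list gene was called by limma, as was true of all genes (0% called higher and 0% lower at an adjusted p under 0.05, while 300 of 8992 had an unadjusted p under 0.05). Over all genes 2 were called without replicate 1 of the subline and 6 without replicate 1 of the parent, and no list gene in either case. Its median log2 fold change was 0.40, against 0.01 for all genes, and 38 of 48 list genes lay above 0, against 50.86% of all genes. Against parent replicate 1 alone the median was 0.17 and 29 lay above 0, and against replicate 2 alone it was 0.62 with 35 above 0. The smallest p-values belonged to DKK3, a secreted Wnt modulator, and IGFBP3, a secreted binding protein of insulin-like growth factors. DKK3 read 6.78 and 7.03 in the subline, against 5.17 and 5.06 in the parent (log2 fold change 1.79 ± 0.63, limma adjusted p = 1.0), and IGFBP3 read 7.97 and 6.57, against 5.35 and 4.76 (2.21 ± 0.87, limma adjusted p = 1.0).

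In the Fadu invasion subline over its parent no list gene was called either, where 0% of all genes were called higher and 0.0222% (2 genes) lower by limma and 182 had an unadjusted p under 0.05. The list median was 0.27, against -0.02 for all genes, and 33 of 48 lay above 0, against 46.75% of all genes. Without replicate 1 of the Fadu subline, the array on which all 6 genes were the higher, the median was 0.05 and 28 lay above 0. The 2 list genes with the smallest p-values were on the low side: the protease MMP10 read 3.90 and 4.49 in the subline, against 5.39 and 5.0034 in the parent (-1.0011 ± 0.38, limma adjusted p = 1.0), and the complement protease C1S read 4.69 and 5.46, against 7.79 and 5.40 (-1.53 ± 0.59, limma adjusted p = 1.0).

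For the Detroit-labelled subline over the Detroit parent, 7 list genes were lower and none was higher by limma, where 1.51% of all genes were called higher and 1.77% lower. With single arrays left out the number of list genes called changed and some were called higher, while the number of all genes called changed too. The replicate block left 4 list genes called, all lower, where 38 of all genes were called higher and 80 lower. The list median was -0.25 and 16 of 48 lay above 0, against -0.01 and 48.55% for all genes. Its direction rested on Detroit parent replicate 1, without which the median was 0.06 with 26 above 0, while without Detroit parent replicate 2 it was -0.58 with 10 above 0. Largest were the proteases MMP10 and MMP1 and the matrix genes IGFBP7 and COL5A2, the last of which encodes a chain of type V collagen. MMP10 read 4.51 and 3.49 in the Detroit-labelled subline, against 8.98 and 8.19 in the Detroit parent (-4.58 ± 0.38, limma adjusted p = 9.75e-05). IGFBP7 read 5.96 and 5.86, against 10.95 and 9.88 (-4.51 ± 0.51, limma adjusted p = 0.000703), and COL5A2 read 3.48 and 3.32, against 8.30 and 6.83 (-4.17 ± 0.39, limma adjusted p = 0.000173). The calls of MMP10, IGFBP7 and COL5A2 held with each of the 12 arrays left out in turn. MMP1 (-4.47 ± 1.06, limma adjusted p = 0.0456) lost its call without any 1 of 9 arrays, all except Detroit-labelled replicate 1 and both OECM1 parent arrays, with adjusted p up to 0.198. THBS1 (-3.38, limma adjusted p = 0.0312) lost it without Detroit-labelled replicate 2 or Detroit parent replicate 1 (up to 0.214), ACKR3 (-2.03, adjusted p = 0.0211) without Detroit-labelled replicate 2 or Detroit parent replicate 2 (up to 0.112), and PRSS23 (-3.02, adjusted p = 0.0107) without Detroit parent replicate 1 (0.0785). Against the Fadu parent the same Detroit-labelled arrays had no list gene called by limma, a list median of -0.04, and 0% of all genes called higher or lower, with 351 of 8992 at an unadjusted p under 0.05. The 7 genes called lower against the Detroit parent were picked on these same Detroit-labelled arrays. The share of all genes lower than the Fadu parent without overlap is not given here, so nothing is read from how many of the 7 were. Of the 7 genes, ACKR3, IGFBP7, MMP1, MMP10 and PRSS23 were lower than the Fadu parent without overlap, by -0.59 (ACKR3, below the limit in both groups) to -3.04 (MMP1, at 7.78 and 6.66 in the Fadu parent). IGFBP7, at 8.70 and 7.59 in the Fadu parent, differed by -2.23 ± 0.51 (limma adjusted p = 0.494), while COL5A2 (3.14 and 3.36) and THBS1 (5.58 and 7.02) overlapped. Without Detroit-labelled replicate 1 that comparison gave 246 calls, 3 of them in the list.

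**Figure D4:**
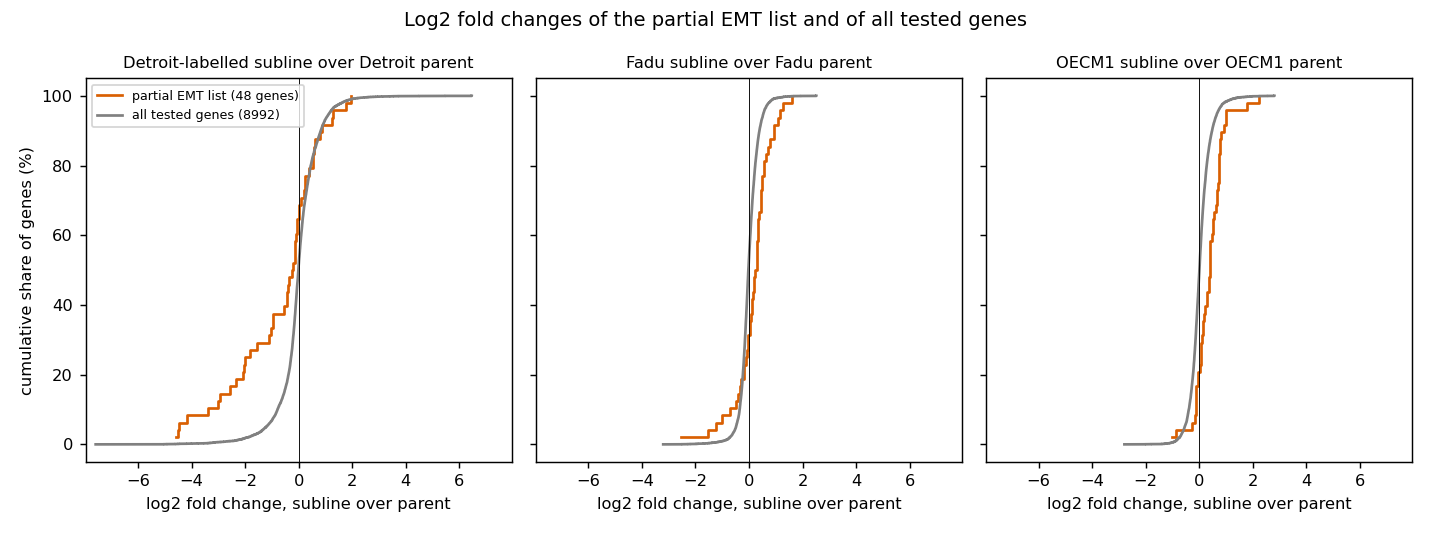
Cumulative share of genes (y axis, percent) at or below each log2 fold change of invasion subline over parent (x axis) for the 48 further partial transition genes (orange) and all 8992 tested genes (grey) in each line. The list curve lay to the right of all genes at its median in OECM1 (0.40) and Fadu (0.27), and had a long lower tail for the Detroit-labelled subline, with 7 genes called lower.

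Between parent lines, COL5A2 and MMP10 were called in both comparisons of the Detroit parent, and TNC in both of the OECM1 parent. The OECM1 parent over the Fadu parent had 3 list genes called higher and none lower by limma, beside 1.43% of all genes higher and 1.5% lower, with a list median of 0.42 against -0.03. These were TNC, a matrix glycoprotein, at 8.23 and 8.01 in OECM1, against 5.16 and 4.85 in Fadu (3.12 ± 0.40, limma adjusted p = 0.00234), the integrin subunit gene ITGA6 (2.29 ± 0.50, adjusted p = 0.0329) and the annexin gene ANXA5 (1.44 ± 0.29, adjusted p = 0.0244). TNC kept its call with each array left out in turn, with an adjusted p of up to 0.0268. ITGA6 lost its call without any 1 of 5 arrays, the 4 Fadu arrays and OECM1 parent replicate 1 (up to 0.215), and ANXA5 without any 1 of 6, the 4 Fadu arrays and both OECM1 parent arrays (up to 0.17). Without both Detroit-labelled arrays 7 list genes were called, 5 higher and 2 lower, where 426 of all 8992 genes were called.

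The Detroit parent over the Fadu parent had 4 list genes called higher and none lower by limma, beside 1.29% of all genes higher and 1.29% lower, with a list median of 0.34 against 0.02. COL5A2 (4.31 ± 0.39, adjusted p = 0.000199) and MMP10 (3.39 ± 0.38, adjusted p = 0.000941) kept their calls with each array left out in turn. IGFBP7 (2.27 ± 0.51, adjusted p = 0.0422) lost its call without any 1 of 7 arrays, namely Detroit parent replicate 1, the 4 Fadu arrays and the 2 OECM1 subline arrays (up to 0.285). TIMP3, an inhibitor of matrix proteases (1.47 ± 0.32, adjusted p = 0.0386), lost it without any of those 7 or Detroit parent replicate 2 (up to 0.319). Without both Detroit-labelled arrays 6 list genes were called, where 366 of all 8992 genes were called.

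The Detroit parent over the OECM1 parent had 4 list genes called higher and 2 lower by limma, beside 1.53% of all genes higher and 1.87% lower, with a list median of -0.21 against 0.05. IGFBP3 read 11.93 and 11.70 in the Detroit parent, against 5.35 and 4.76 in the OECM1 parent (6.76 ± 0.87, limma adjusted p = 0.00169), and MMP10 (4.97) and COL5A2 (4.28) were higher with it. TNC was lower by limma (-2.62 ± 0.40, adjusted p = 0.00493), and these 4 calls held with each array left out in turn. SERPINH1, a collagen chaperone (2.70 ± 0.55, adjusted p = 0.0236), lost its call without Detroit parent replicate 1 or OECM1 parent replicate 2 (up to 0.149). LGALS1, which encodes galectin-1 (-2.53 ± 0.58, adjusted p = 0.0405), lost it without Detroit parent replicate 1 or any 1 of the Fadu and OECM1 arrays (up to 0.161). Without both Detroit-labelled arrays 10 list genes were called, 4 higher and 6 lower, where 516 of all 8992 genes were called.

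Transcription factors of the full transition were mostly dim. ZEB1, ZEB2, and PRRX1 lay below the limit on all 12 arrays, and 4 of the 8 factors on the arrays passed it. SNAI2, the factor SLUG, followed the lines and was not called between any subline and its parent. It read 9.50 and 9.89 in the OECM1 parent, against 8.06 and 7.75 in the Fadu parent (1.79 ± 0.41, limma adjusted p = 0.0412). That call was lost without any 1 of 8 arrays, the Fadu and OECM1 ones, with adjusted p up to 0.243. It read 6.21 and 6.80 in the Detroit parent, which was lower than the OECM1 parent (-3.19 ± 0.41, limma adjusted p = 0.00157), and that call held with each array left out. In the OECM1 invasion subline SNAI2 read 10.32 and 9.92 (0.42 over the parent, limma adjusted p = 1.0). The Fadu invasion subline read 8.73 and 8.71, above both Fadu parent arrays (0.82 over that parent). Detroit-labelled arrays read 7.22 and 6.14, which overlapped the Detroit parent and lay below both Fadu parent arrays.

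Around activin, INHBB, the gene of another activin beta subunit, read 7.50 and 7.46 in the OECM1 invasion subline, against 6.16 and 7.26 in the OECM1 parent (0.77, limma adjusted p = 1.0). The OECM1 parent exceeded the Fadu parent, which read 4.44 and 4.62 (2.18 ± 0.51, limma adjusted p = 0.0452), a call lost without any 1 of 8 arrays, the Fadu and OECM1 ones (up to 0.263). Of the 20 genes of the activin and TGF-beta family on the arrays 19 were tested, and in OECM1 over its parent 15 lay above 0 and none was called by limma, beside 50.86% above 0 and 0% called of all genes. Some of the 19 read lower on both subline arrays than on parent replicate 1. The count of 15 was not repeated against each parent array alone, so nothing is read from it. TGFB1, the ligand gene after which TGFBI is named, read 7.31 and 8.43 in the OECM1 invasion subline, against 6.99 and 6.09 in the parent (1.32, limma adjusted p = 1.0), and its other probe set had a small difference of opposite sign. The decoy receptor gene BAMBI was higher in the Detroit parent than in the OECM1 parent (1.71 ± 0.30, limma adjusted p = 0.0101), a call lost without Detroit parent replicate 1 (0.0804). BAMBI was also called higher in the Detroit parent than in the Fadu parent (1.61, adjusted p up to 0.15 with 1 array left out) and lower in the Detroit-labelled subline than in the Detroit parent (-1.52, up to 0.146), where the subline overlapped the Fadu parent. SMAD4, the common mediator of TGF-beta and activin signals, read 4.98 and 5.16 in the OECM1 parent, against 2.99 and 3.10 in the Fadu parent, below the limit (2.03 ± 0.21, limma adjusted p = 0.000674), and that call held with each array left out. In the Detroit parent SMAD4 read 3.92 and 3.74, lower than in the OECM1 parent (-1.25, limma adjusted p = 0.00839), a call lost without Detroit parent replicate 2 (0.0671). SMAD4 read 3.08 and 2.76 in the Detroit-labelled subline (-0.91 against the Detroit parent, limma adjusted p = 0.0402, lost without any 1 of 9 arrays), overlapping the Fadu parent, with all of these groups below the limit.

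Partners of the other genes gave few calls. Podoplanin binds the actin linkers ezrin and moesin, and MSN, the moesin gene, read 7.93 and 6.16 in the Detroit-labelled subline, against 3.55 and 3.53 in the Detroit parent (3.51 ± 0.48, limma adjusted p = 0.00287). The Fadu parent read 7.32 and 7.75 for MSN, and the Detroit parent was called lower than it (-3.9975) and lower than the OECM1 parent (-4.60). CD9, a tetraspanin gene of the same list, was lower in the OECM1 parent than in the Fadu parent (-1.50, limma adjusted p = 0.0249), a call lost without any 1 of 6 arrays (up to 0.24). CD44, a hyaluronan receptor that binds podoplanin, read 12.11 and 11.59 in the OECM1 invasion subline, against 11.05 and 10.15 in the OECM1 parent (1.24, limma adjusted p = 1.0). Among 13 collagen hydroxylation and crosslinking genes, a list made around P4HA2, 11 lay above 0 in OECM1 subline over parent and none was called by limma. Their median was 0.50, beside 50.86% above 0, 0% called and a median of 0.01 for all genes. Here too some genes read lower on both subline arrays than on OECM1 parent replicate 1. The count of 11 was not repeated against each parent array alone, so nothing is read from it or from the median. P4HA1, another catalytic subunit gene, read 9.83 and 8.92 in the OECM1 invasion subline, against 9.07 and 7.92 in the parent (0.88, limma adjusted p = 1.0). EMP1, of the same family as EMP3, read 8.33 and 8.76 in the OECM1 subline, against 8.14 and 7.43 in the parent (0.76, limma adjusted p = 1.0). Of 8 other intermediate filament and linker genes 7 were tested, and none was called in any of the 6 comparisons by limma. Over these comparisons 0% to 1.53% of all genes were called higher and 0% to 1.87% lower, so nothing is read from that count. KRT5, a basal keratin gene of epithelia, read 4.87 and 6.23 in the OECM1 invasion subline, against 6.97 and 8.18 in the OECM1 parent (-2.02 ± 0.65, limma adjusted p = 0.923). The epithelial and squamous list as a whole did not fall there. Of its 11 genes 5 lay above 0 and 6 below, and 0 were called by limma. Its median was -0.008, against 0.01 for all genes. DSP, the desmoplakin gene, was lower in the Detroit parent than in the OECM1 parent (-1.71, limma adjusted p = 0.0206, lost without 2 arrays) and the Fadu parent (-1.49, limma adjusted p = 0.0479, lost without any 1 of 8).

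Closest in pattern to VIM over the 12 arrays, by the root mean square difference of values with each gene's own mean taken off, were SPP1 (0.48), ADGRG2 (0.51) and SRPX (0.67), and 0.07% of tested genes lay within 0.75 of it. SPP1, which encodes osteopontin, averaged 7.89 in the OECM1 subline and 6.45 in the OECM1 parent, against 3.17 to 3.28 in the other 4 groups. Closest to INHBA were PROCR (0.38), MFSD12 (0.38) and HCLS1 (0.39), and PROCR, the protein C receptor gene, averaged 8.80 in the OECM1 subline and 7.37 in its parent. TGFBI had no gene as near, with FN1 at 0.98, ADAM9 at 1.08 and PTGS2 at 1.10. This distance is not scaled to a gene's own spread, which was largest for TGFBI (SD 2.70). Its size is therefore not compared between the 6 genes. FN1, the fibronectin gene, averaged 9.13 in the OECM1 subline and 8.70 in the OECM1 parent, 4.51 in the Detroit-labelled subline and 8.15 in the Detroit parent; the Fadu subline averaged 5.90 and the Fadu parent 5.20. By limma FN1 was lower in the Detroit-labelled subline than in the Detroit parent (-3.64, adjusted p = 0.0116). It was higher than in the Fadu parent in the OECM1 parent (3.50, adjusted p = 0.0139) and the Detroit parent (2.95, adjusted p = 0.0372). The first of these FN1 calls was lost without Detroit parent replicate 1 (0.0865), the second without Fadu parent replicate 1 or OECM1 parent replicate 1 (up to 0.158), and the third without any 1 of 7 arrays (up to 0.284). PDPN lay nearest to RUNX3 (0.32), CDCP1 (0.37) and XYLT2 (0.38), EMP3 to CLPTM1 (0.36), KDELR1 (0.44) and RMDN3 (0.47), and P4HA2 to TMED9 (0.33), RCN2 (0.34) and YIPF3 (0.38). For PDPN and P4HA2 this distance separates little, since 33.0% and 35.4% of tested genes lay within 0.75 of them. Distances are descriptions over 12 arrays that share lines and duplicates, and carry no p-value.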

How the data were processed

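Each of the 12 arrays came as 22283 deposited log2 values, 1 per probe set, which the authors made with RMA (background correction, quantile normalisation and probe summary), with Partek version 7 also named, per the submitters' processing notes. Scanner files were not used here, and genome build and annotation are not given in the sources used here. Array medians lay between 4.92 and 5.06, and the number of arrays limits the precision. No value was missing.

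Probe sets were named from the platform annotation: 19065 carried 1 symbol, 1043 carried more than 1, and 2107 had no entry there. Each gene was represented by its probe set with the highest mean, and a gene was tested where at least 2 arrays exceeded 4.52, the limit for dim genes, set at percentile 40 of the table, which 8992 of 11963 genes met. All 6 genes described met it, with 7 of their 9 probe sets. Because a gene can pass this limit through 1 high group, nothing is read from that count.

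Groups were compared in 1 limma fit (limma 3.58.1, R 4.3.3) over all 12 arrays with an intensity trend, Benjamini-Hochberg adjustment over 8992 genes and a threshold of 0.05. Standard errors come from that fit. It was run on simulated data with independent noise for each gene and array, which cannot show that the errors hold for duplicates that differ array-wide. The 6 genes and all gene lists were chosen with earlier results of these data known. Further genes were named by rule: called genes of each list, at most 4 by size, otherwise up to 2 with the smallest p (not all are given), relatives of the 6 genes, and for each of the 6 genes the 3 nearest in pattern. ACKR3, LGALS1, PRSS23 and THBS1 complete the counts of called list genes and were added after their values were seen. Promoter windows are RefSeq GRCh38.p14, and motif searches covered both strands.

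Alternatives were the filter, the trend, probe set choice, a replicate block, array weights and each array left out. Without both Detroit-labelled arrays, and with crossed pairing, were chosen after seeing the data. LAMA3, CDH13, ITGB6, PTHLH, TNFRSF6B, COL17A1, TWIST2, PMP22, KRT6A, KRT17, TP63 and CD68, among other listed genes, are not analysed here.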

Additional observations from a re-analysis of the deposited data

Results flagged for a closer look

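Both OECM1 invasion subline arrays lay above the OECM1 parent mean for TGFBI while both Detroit-labelled subline arrays lay below the Detroit parent mean, and the effects were 5.46 apart on the log2 scale (0.84 in OECM1 and -4.62 for the Detroit-labelled arrays, which resembled the Fadu parent). In the same way the OECM1 and Fadu effects of TGFBI (0.84 and -0.55) were 1.38 apart, and the OECM1 and Detroit-labelled effects of INHBA (0.43 and -0.27) were 0.70 apart. None of these 3 differences was tested, and the INHBA parent duplicates lay on both sides of the OECM1 subline. For TGFBI the Fadu groups overlapped, and the Fadu effect changed sign to 0.34 without Fadu parent replicate 2.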

How the results depend on the processing

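Of 42 differences of the 6 genes between groups, 224 alternative values were computed (median-centred arrays, the mean of all probe sets, single arrays left out): 61 moved by at least 1 SD and 36 changed sign, none of these among the 10 differences of at least 1 log2 unit. The PDPN difference in OECM1 (1.74) was 0.78 as a mean of 3 probe sets, 1 of which lay below the limit. Counts of calls moved far more, and the cause was not tested. Replicate numbers did not pair the samples (correlations of duplicate differences -0.19 in Detroit, -0.38 in Fadu, -0.40 in OECM1). With the replicate block, genes called were 118 against 295 for the Detroit-labelled subline over the Detroit parent (4 against 7 list genes), 0 against 2 in Fadu, 73 against 232 for the Detroit over the Fadu parent (2 against 4 list genes), 118 against 264 for the OECM1 over the Fadu parent and 139 against 306 for the Detroit over the OECM1 parent. With a crossed block, chosen after seeing the data, these were 501, 2, 375, 441 and 500, with 7 list genes for the Detroit over the Fadu parent and 6 for the OECM1 over the Fadu parent. With array weights they were 170, 5, 506, 191 and 173. Without both Detroit-labelled arrays, the 3 parent comparisons gave 366, 426 and 516 calls, with 7 list genes for OECM1 over Fadu and 10 for Detroit over OECM1. With single arrays left out, genes called ranged from 128 to 918 for the Detroit-labelled subline over the Detroit parent, 0 to 3 in Fadu, 0 to 6 in OECM1, 58 to 369 for the Detroit over the Fadu parent, 65 to 427 for the OECM1 over the Fadu parent, 144 to 516 for the Detroit over the OECM1 parent and 0 to 246 for the Detroit-labelled subline over the Fadu parent. List genes called ranged from 4 (without Detroit-labelled replicate 2 or Detroit parent replicate 1) to 14 (without Detroit-labelled replicate 1, 3 of them higher), from 2 to 6 for the Detroit over the Fadu parent, from 1 to 7 for the OECM1 over the Fadu parent and from 0 to 3 for the Detroit-labelled subline over the Fadu parent. The filter, the trend and separate probe sets moved no count by over 1.5 times.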
